A study of Rattus norvegicus with 6 samples.

Results

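Ccl2, Ccl3, Ccl4, Ccl5, Ccl6, Ccl7, Ccl9, Cxcl1, Cxcl2 and Cxcl16 encode small secreted or membrane-bound proteins that draw white blood cells into tissue. They were chosen by name, with earlier results of these data known. Each of the 10 had 1 row among the 30600 rows with values in a table of rat subchondral bone, the bone under the joint cartilage of the knee. The series sequenced RNA from this bone to relate cold to joint disease, in rats kept at low or at normal temperature. The titles S10, S12 and S13 and the titles S20, S21 and S23 name the 6 libraries, and no strain, age, treatment or temperature is attached to any of them in the labels used here. No library was therefore assigned to a group, no effect of temperature was tested, and levels are given library by library. Nothing in the sources used here says whether the libraries came from separate rats.

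Chemokines are named for their first cysteines, which are adjacent in the CC class and separated by a single residue in the CXC class. They bind G protein-coupled receptors on leukocytes: Cxcl1 and Cxcl2 recruit neutrophils through Cxcr2, Ccl2 and Ccl7 recruit monocytes through Ccr2, and Ccl3, Ccl4 and Ccl5 attract T cells, NK cells and monocytes. In inflamed joints and bone they are made by macrophages, synovial fibroblasts and osteoblast lineage cells, and many of their genes are induced by interleukin 1, tumour necrosis factor and Toll-like receptors through the transcription factor NF-kappaB.

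The libraries held 39990624 to 59200981 counts. All 7 osteoblast markers examined, which define bone-forming cells, had a median of at least 1 FPKM (fragments counted per kilobase of a transcript and corrected for sequencing depth), so bone was present in the RNA. The 4 named globin rows took 10.4% of all counts in S23 and 18.9% to 27.6% in the other libraries. S23 thus stood apart in its share of red cell RNA, and the ranges, the counts of wide ranges and the nearest genes below are also given without it. In bulk tissue, fewer cells of a type and less RNA per cell cannot be told apart. TMM scaling, which aligns the libraries on the bulk of their genes, moved every gene by 0.39 in S10, by -0.21 in S12, by -0.16 in S20 and by -0.11 in S23 on the log2 scale.

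Ccl6 was by far the most abundant of the 10 chemokines, and 5 others, Ccl2, Ccl7, Ccl9, Cxcl1 and Cxcl2, were low in 5 libraries and several-fold higher in S23. Median levels over the 6 libraries were 158 FPKM for Ccl6, 10.5 for Ccl5, 5.15 for Cxcl16, 4.52 for Ccl3, 1.81 for Ccl4, 1.17 for Ccl9, 1.06 for Ccl2, 0.267 for Cxcl1, 0.158 for Ccl7 and 0.0938 for Cxcl2. The lowest Ccl6 value lay above the highest Ccl5 value, and the lowest Ccl3 value above the highest Ccl4 value. The values of every other pair of neighbours in this order overlapped over the libraries. Ccl5 exceeded Cxcl16 in 6 of 6 libraries, Cxcl16 exceeded Ccl3 in 5 and Ccl4 exceeded Ccl9 in 5, whereas Ccl9 exceeded Ccl2, Cxcl1 exceeded Ccl7, and Ccl7 exceeded Cxcl2 in only 4. In all, 7 of the 10 genes reached a median of 1 FPKM, Ccl2 and Ccl9 by a narrow margin.

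**Figure D1:**
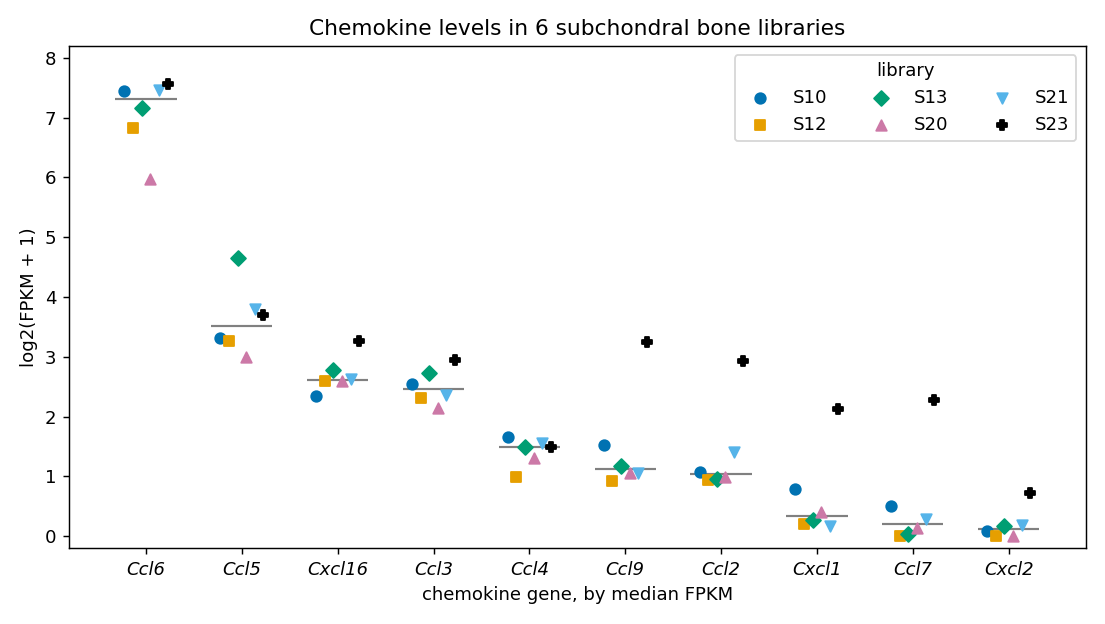
Level of each chemokine gene, as log2(FPKM + 1) on the vertical axis, in the 6 libraries (1 symbol per library), with genes ordered by median FPKM and a grey line at the median. Ccl6 lies above all others, Ccl5 is highest in S13, and the S23 symbol lies well above the other 5 for Ccl9, Ccl2, Cxcl1, Ccl7 and Cxcl2.

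The neutrophil attractants Cxcl1 and Cxcl2 were scarce outside S23. Cxcl1 (ENSRNOG00000002802), known in the rat as CINC-1, had 0.130 FPKM in S21, 0.156 in S12, 0.213 in S13, 0.321 in S20, 0.734 in S10 and 3.36 in S23. The S23 value was 4.58 times the next highest, in S10, and rested on 161 counts (95% exact Poisson interval 137 to 188) against 7 to 30 counts in the others. Such intervals cover counting error only. Cxcl2 (ENSRNOG00000002792), the rat counterpart of macrophage inflammatory protein 2, had 0 counts in S12, 0 in S20, 3 in S10, 8 in S13, 10 in S21 and 37 in S23. In FPKM that was 0.657 in S23, which was 4.71 times the next highest value of 0.139 in S21. Finding 0 counts still allows for 3, which is 0.0679 CPM (counts scaled to the library total) in S12 and 0.0737 CPM in S20, so Cxcl2 was not detectable there at this depth. For both genes the interval of S23, on the CPM scale, lay above those of all other libraries.

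The monocyte attractants Ccl2 and Ccl7 had the same high library. Ccl2 (ENSRNOG00000007159), also called MCP-1, had 0.921 FPKM in S12, 0.933 in S13, 0.998 in S20, 1.12 in S10, 1.67 in S21 and 6.61 in S23. Thus 4 libraries lay close to 1 FPKM, S21 was slightly higher, and S23 was 3.96 times S21. Ccl7 (ENSRNOG00000000239), or MCP-3, had 169 counts in S23, 16 in S10, 13 in S21, 4 in S20, 2 in S13 and 0 in S12. Its S23 level of 3.84 FPKM was 9.21 times that of S10 (0.417 FPKM), the widest gap between the highest and the next library among the 10 genes.

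Ccl9 and Ccl6 are CC chemokines described in rodents, where Ccl9 is known from mouse macrophages and osteoclasts and acts on Ccr1. They lie next to each other on chromosome 10 of the GRCr8 map, yet their profiles differed. Ccl9 (ENSRNOG00000028548) had 0.898 FPKM in S12, 1.08 in S20, 1.09 in S21, 1.25 in S13, 1.90 in S10 and 8.56 in S23, so that S23 was 4.51 times S10. Ccl6 (ENSRNOG00000030021) had 62.0 FPKM in S20, 113 in S12, 142 in S13, 174 in S10, 175 in S21 and 187 in S23. Here S23 was only 1.07 times S21, and the library that stood out was S20, at the low end. Ccl6 held 82.1% of the counts of all 10 genes in S20 (95% Clopper-Pearson interval 80.9% to 83.2%) and 91.8% in S10 (91.2% to 92.3%), with the other libraries between them, so the summed chemokine level is mostly a Ccl6 level. Without Ccl6, the other 9 genes together had 57.2 CPM in S23 and 20.4 to 34.4 CPM in the other libraries.

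Ccl3, Ccl4 and Ccl5, which attract lymphocytes and monocytes, did not share the S23 pattern. Ccl5 (ENSRNOG00000010906), or RANTES, which T cells, NK cells and platelets carry, had 7.00 FPKM in S20, 8.64 in S12, 8.96 in S10, 12.1 in S23, 12.9 in S21 and 24.3 in S13. It was highest in S13, at 1.88 times S21. Of the 10 T and NK cell markers, Cd3g (12.5 FPKM) and the NK receptor gene Klrd1 (1.30 FPKM) were also highest in S13, though Cd3g was highest in S10 under TMM scaling. The T cell receptor complex genes Cd3d (4.28 FPKM) and Cd3e (4.60 FPKM) were second highest in S13, after S10. The rest of the list was highest elsewhere as deposited: Cd4, Cd8a and Prf1 in S12, and Nkg7, Gzma and Gzmb in S23. The summed level of the list was 296 FPKM in S13, inside the 240.5 to 445 FPKM of all libraries. Most of that sum was Nkg7, without which it was 53.0 FPKM in S13 and 35.0 to 63.2 FPKM over all libraries. The platelet chemokine Pf4 had 904 FPKM in S13, inside its range of 512 to 1174 FPKM. The part of T cell, NK cell or platelet content in the Ccl5 value of S13 was not tested. Ccl3 (ENSRNOG00000011205), or MIP-1 alpha, had 3.42 FPKM in S20, 3.94 in S12, 4.16 in S21, 4.87 in S10, 5.66 in S13 and 6.68 in S23, and the counting interval of S23 overlapped that of S13. Ccl4 (ENSRNOG00000011406), or MIP-1 beta, had 0.990 FPKM in S12, 1.47 in S20, 1.81 in S23, 1.81 in S13, 1.97 in S21 and 2.16 in S10, with 30 to 81 counts per library. For Ccl3 and Ccl4 the highest library could not be told from the next at this depth, and it moved with the scaling: to S10 for Ccl3 under TMM and median-ratio scaling, and to S23 for Ccl4 when FPKM values were brought to a common sum.

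Cxcl16 (ENSRNOG00000026647) differs from the rest in being made as a transmembrane protein, which binds Cxcr6 and is shed by the proteases Adam10 and Adam17. It had 4.06 FPKM in S10, 5.03 in S20, 5.08 in S12, 5.22 in S21, 5.91 in S13 and 8.66 in S23. S23 was again the highest, but by 1.47 times over S13, a smaller gap than for the 5 genes above. The proteases did not follow this order: Adam10 had 7.40 FPKM in S10 and 35.1 in S20, and Adam17 had 9.72 FPKM in S10 and 16.2 in S20, and in S23 they had 22.8 and 16.2 FPKM. Under TMM scaling the highest Adam17 value moved to S23.

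As a set, 8 of the 10 genes were highest in S23, the exceptions being Ccl4 and Ccl5. The set and this count were chosen with earlier results of these data known, so the shares beside them are description only. Of the 13481 annotated genes that reached 0.5 FPKM in any library, as all 10 did, 22.9% were highest in S23. Under TMM scaling 6 of 10 were highest in S23, against 15.8% of these genes, since the highest value of Ccl3 and Ccl6 then lay in S10. In 5 of the 10 genes S23 was also at least 2 times the next library, which held for 0.401% of the 13481 genes, and under TMM scaling for 0.326%. Of the 5, Ccl7 and Cxcl2 reached 0.5 FPKM in S23 only, and so met that mark through the library that the count describes. Other genes among the 13481, such as Ccl20, did so too. These same 5 genes, Ccl2, Ccl7, Ccl9, Cxcl1 and Cxcl2, passed that mark under each of the 4 other scalings, with gaps from 3.14 times (Ccl9) to 11.8 times (Ccl7). A range over the libraries of 1 or more on the log2(FPKM + 1) scale, which understates changes of low genes, was found in 6 of 10 genes and in 33.5% of the 13481. The median range was 1.62 for the 10 genes and 0.83 over the 11625 annotated genes whose median reached 1 FPKM. Without S23 the ranges of Ccl2, Ccl7, Ccl9, Cxcl1 and Cxcl2 fell from 1.99, 2.28, 2.33, 1.95 and 0.73 to 0.47, 0.50, 0.61, 0.62 and 0.19. The count of genes with a range of 1 or more then fell from 6 to 2, namely Ccl5 and Ccl6, while the share of the 13481 genes with such a range fell from 33.5% to 29.2%. The median range without S23 was 0.60 for the 10 genes and 0.76 for the 11625.

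**Figure D2:**
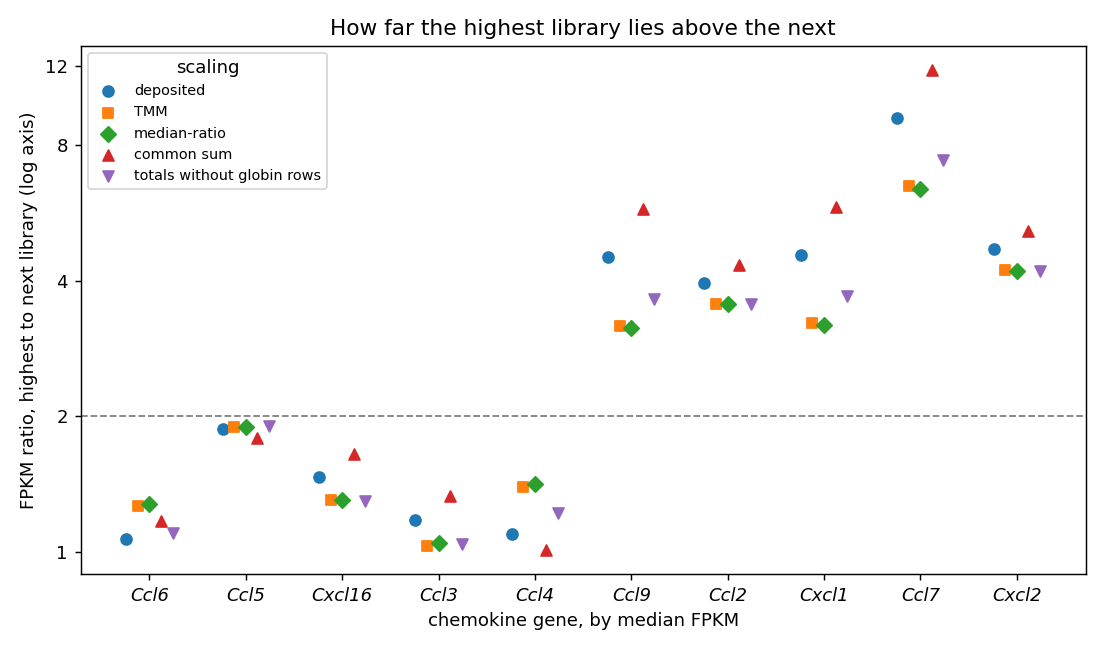
Ratio of the highest library to the next highest, in FPKM on a log axis, for each chemokine gene under the deposited scaling and 4 other scalings (symbols), with a dashed line at 2. Ccl9, Ccl2, Cxcl1, Ccl7 and Cxcl2 lie above the line under all 5 scalings, and Ccl6, Ccl5, Cxcl16, Ccl3 and Ccl4 lie below it.

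Promoter sequences from RefSeq (build GRCr8) matched 6 of the 10 genes: Ccl6, Ccl7, Ccl9, Cxcl1, Cxcl2 and Cxcl16. The 250 bases before the annotated start are shown for 4 genes that were highest in S23 by a wide margin and for Ccl6, which was not, because NF-kappaB is a known inducer of this family. Sequences run 5′ to 3′ toward the start. Capitals mark matches on either strand to GGNNTTTCC, a kappaB-type pattern, or to TATAAA, the core of the box that positions the start of transcription, and matches to the one pattern do not overlap matches to the other.
Cxcl1, chr14:17479322-17479571, minus strand: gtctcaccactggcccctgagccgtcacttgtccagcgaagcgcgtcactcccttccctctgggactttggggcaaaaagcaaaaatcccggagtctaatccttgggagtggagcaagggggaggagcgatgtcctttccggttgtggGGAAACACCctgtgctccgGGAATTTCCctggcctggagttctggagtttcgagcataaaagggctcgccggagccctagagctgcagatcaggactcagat
Cxcl2, chr14:17467256-17467505, minus strand: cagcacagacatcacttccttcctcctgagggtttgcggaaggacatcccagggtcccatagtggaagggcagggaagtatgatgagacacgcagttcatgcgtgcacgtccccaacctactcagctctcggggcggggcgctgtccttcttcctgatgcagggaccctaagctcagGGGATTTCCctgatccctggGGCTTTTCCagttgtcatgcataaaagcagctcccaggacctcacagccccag
Ccl7, chr10:67513845-67514094, plus strand: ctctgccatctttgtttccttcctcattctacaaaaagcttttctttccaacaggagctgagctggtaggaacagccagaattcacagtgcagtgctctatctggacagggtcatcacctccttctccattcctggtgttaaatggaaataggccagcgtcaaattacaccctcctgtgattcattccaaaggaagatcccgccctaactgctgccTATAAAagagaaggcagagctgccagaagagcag
Ccl9, chr10:68868878-68869127, minus strand: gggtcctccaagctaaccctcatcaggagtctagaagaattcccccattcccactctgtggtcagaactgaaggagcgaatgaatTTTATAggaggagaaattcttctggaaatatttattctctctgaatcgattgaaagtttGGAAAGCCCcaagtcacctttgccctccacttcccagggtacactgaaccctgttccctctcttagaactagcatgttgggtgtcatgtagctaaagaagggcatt
Ccl6, chr10:68883367-68883616, minus strand: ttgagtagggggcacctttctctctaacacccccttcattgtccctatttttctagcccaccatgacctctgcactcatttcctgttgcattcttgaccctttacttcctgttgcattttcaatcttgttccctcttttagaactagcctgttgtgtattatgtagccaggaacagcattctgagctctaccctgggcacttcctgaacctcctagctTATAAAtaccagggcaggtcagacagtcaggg
The pattern GGNNTTTCC, searched on both strands from 250 bases before to 50 bases after the start, was present in Cxcl1, Cxcl2 and Ccl9, 3 of 6, against 6.05% of all 33469 promoters of this length. Cxcl1 had the match GGAATTTCC from position -83, counted upstream from the start, and a match on the opposite strand from position -102. Cxcl2 had GGGATTTCC from position -73 and GGCTTTTCC from position -53, and Ccl9 had 1 match on the opposite strand from position -106. Thus both neutrophil attractant genes held a pair of matches. No match lay in this window in Ccl7, Ccl6 or Cxcl16, and Ccl7 had the widest S23 margin of all. TATAAA was present in 3 of 6, against 14.2% of all promoters. It lay on the gene's own strand from position -32 in Ccl6 and from -34 in Ccl7. In Ccl9 it lay on the opposite strand from position -165, and on both strands after the start, from positions 38 and 40, which the printed bases do not reach. The patterns were chosen after the sequences were seen, a match is a description and not a binding site, and no binding was measured.

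Genes that lie side by side shared their highest library in some cases and not in others. On the GRCr8 map, with protein-coding genes only, Ccl2 and Ccl7 are direct neighbours, Ccl5, Ccl9, Ccl6, Ccl3 and Ccl4 follow one another in this order on chromosome 10, and Cxcl2 and Cxcl1 are direct neighbours on chromosome 14. The pairs Ccl2 with Ccl7 and Cxcl1 with Cxcl2 were each highest in S23 by a wide margin. Apart from S23 their orders differed, at low counts. The next highest library was S21 for Ccl2 and S10 for Ccl7. Cxcl1 was lowest in S21 (8 counts), which was the next highest library for Cxcl2 (10 counts). In the run from Ccl5 to Ccl4, Ccl5 was highest in S13, Ccl9 in S23 by a wide margin, and Ccl6, Ccl3 and Ccl4 had no library at 2 times the next. The labels and the file do not say how reads shared by such related genes were counted, so a part of the counts of 1 gene may belong to a relative, and this was not tested.

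Other chemokines were listed by name, whatever their level, and all 25 had a row. The highest medians were those of the platelet genes Pf4 (855 FPKM) and Ppbp (252 FPKM), of Cxcl12 (142 FPKM), the marrow stromal factor that retains blood-forming cells, and of Cxcl14 (55.1 FPKM). These 4 were not highest in S23, and Cxcl12 was lowest there, at 103 FPKM. Of the 25, 9 reached a median of 1 FPKM, 6 had a range of 1 or more and 10 were highest in S23, or 9 under TMM scaling. Of the 13481 genes, 33.5% had such a range and 22.9% were highest in S23, or 15.8% under TMM scaling. Those genes all reached 0.5 FPKM, as only 16 of the 25 did. Some of the 10 rested on few counts, such as Cxcl11, with 12 in S23 and 12 in S21. Of the 16 that reached 0.5 FPKM, 3 had S23 at least 2 times the next library, against 0.401% of the 13481 genes. Of these 3, Ccl20 and Cxcl3 reached 0.5 FPKM in S23 only, so they entered the count through the library that it describes. Ccl20, a ligand of Ccr6, had 115 counts in S23 and 0 in the other 5 libraries. Its S23 level was 33.1 times the largest CPM that 3 counts would give in any of those 5. The counting error of the S23 value is not included in this figure. Cxcl3, a close relative of Cxcl1 and Cxcl2, had 30 counts in S23 and 0 elsewhere, or 8.64 times on the same basis. Cxcl13, the B cell attractant, had 8.73 FPKM in S23 and 0.277 to 1.61 in the other libraries. The interferon-induced Cxcl9 and Cxcl10 were highest in S23 as well, at 1.91 and 1.38 FPKM, but less than 2 times the next library.

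**Figure D3:**
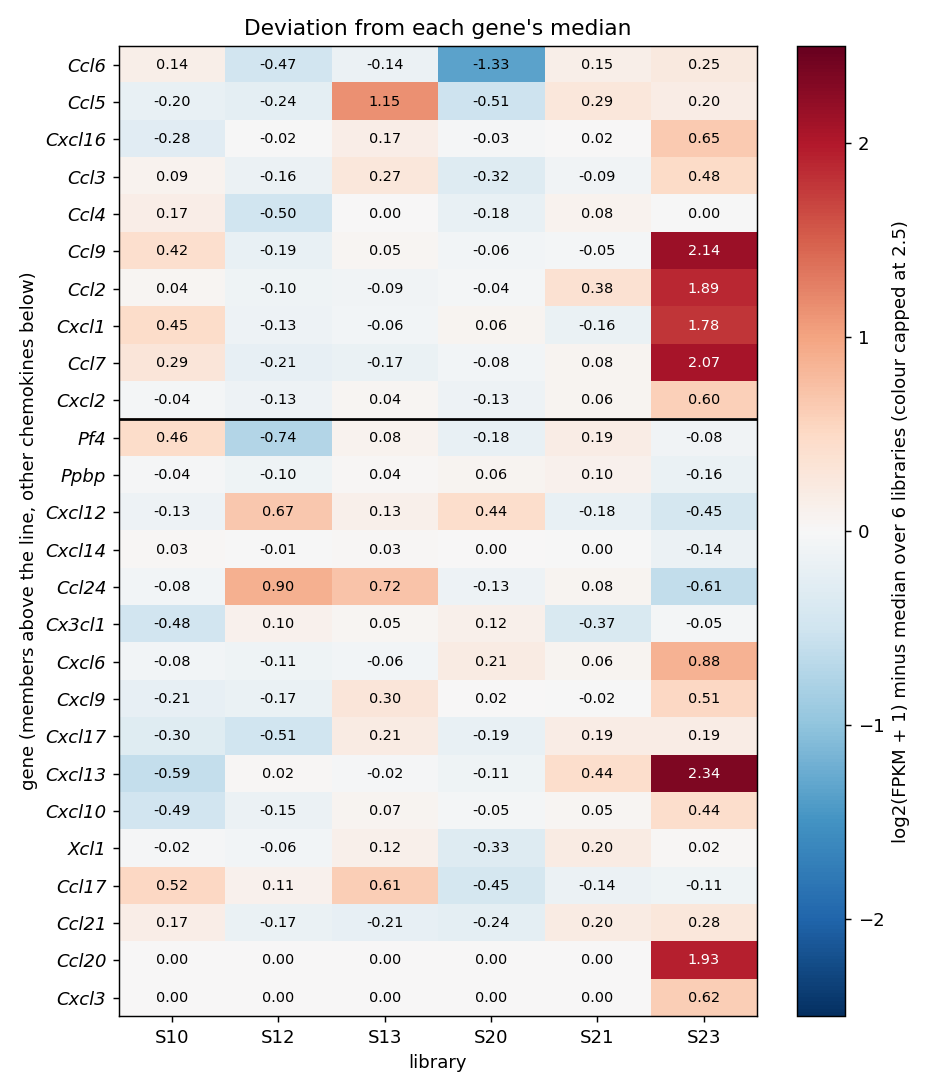
Deviation of log2(FPKM + 1) from each gene's median over the 6 libraries (columns), for the 10 chemokines of the set above the line and for the other listed chemokines that reached 0.5 FPKM below it. Deviations of 1.78 to 2.34 lie in S23 for Cxcl1, Ccl2, Ccl20, Ccl7, Ccl9 and Cxcl13, the lowest value is -1.33 for Ccl6 in S20, and Ccl5 is at 1.15 in S13.

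Receptors for these ligands were present. Of 23 listed receptor genes, 21 had a row and 11 reached a median of 1 FPKM; Ccr2 and Ackr1 had no row by name and were not analysed here. Cxcr4, the receptor of Cxcl12, led with a median of 138 FPKM, followed by Cxcr2 (38.8 FPKM) and Ccr1 (17.1 FPKM). Cxcr2, the neutrophil receptor for Cxcl1 and Cxcl2, had 12.5 FPKM in S10, 33.7 in S13, 34.4 in S20, 43.1 in S21, 43.3 in S12 and 76.7 in S23. Ccr1 ranged from 15.5 FPKM in S20 to 31.5 in S23. Both receptors shared their highest library with Cxcl1, Ccl2 and Ccl9 under the deposited and the TMM scaling, but none of the 21 receptors had S23 at 2 times the next library. Of the 21, 6 were highest in S23, 7 in S12, and 3 were lowest in S23. Under TMM scaling 5 were highest and 4 lowest in S23. Of the 13481 genes, 22.9% were highest there, or 15.8% under TMM scaling, and all reached 0.5 FPKM, as 15 of the 21 did. Cxcr6, the receptor of Cxcl16, had a median of 0.527 FPKM.

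Known inducers of chemokine genes were also listed by name. All 16 genes of the interleukin 1, tumour necrosis factor, Toll-like receptor and NF-kappaB list had a row, and 13 reached a median of 1 FPKM. Of the 16, 9 were highest in S23 under the deposited and under TMM scaling, against 22.9% and 15.8% of the 13481 genes. Tnf was lowest in S23 under both, at 0.351 FPKM as deposited, and Rela was lowest there under TMM scaling. The 4 with the highest medians were Nfkbia, the inhibitor of NF-kappaB (42.9 FPKM, highest in S13), the receptor gene Tnfrsf1a (42.9 FPKM), the adaptor gene Myd88 (26.6 FPKM) and the NF-kappaB subunit gene Rela (20.6 FPKM). Only Il6, itself a target of this pathway, had S23 at least 2 times the next library, with 115 counts in S23 and 0 to 13 in the others. Il6, too, reached 0.5 FPKM in S23 only. Heparan sulphate proteoglycans and their synthesis enzymes, which anchor chemokines at cell surfaces, were led by Sdc3, Sdc4, Sdc2 and Sdc1, with medians of 17.1, 12.2, 10.7 and 9.25 FPKM. All 8 of that list reached a median of 1 FPKM, and only Sdc1 was highest in S23.

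Blood cell markers did not all move with S23. Most neutrophil markers were highest there, whereas the eosinophil markers summed to 1856 FPKM in S23, inside their range of 107.8 to 4246 FPKM. The erythroid sum, given below, was lowest there. Of 12 neutrophil markers 11 were highest in S23, and their summed level was 76200 FPKM there and 18150 to 45280 FPKM in the other libraries, which is 1.68 times the next library (1.23 times under TMM scaling, with 10 markers highest in S23). Cxcr2, described above, is one of them. The list was led by S100a9, S100a8, Camp and Ngp, and its remaining member, Ltf, stayed at or under 0.0301 FPKM throughout. The monocyte and macrophage markers summed to 15930 FPKM in S23 and 4246 to 8735 FPKM elsewhere, 1.82 times the next library (1.37 times under TMM scaling), with 4 of 10 highest in S23. Most of that sum was Lyz2, without which it was 530 FPKM in S23, inside the 477 to 723 FPKM of all libraries. The macrophage genes C1qa, C1qb and C1qc were lowest in S23, at 125, 77.2 and 93.2 FPKM. The gaps of Ccl2, Ccl7, Ccl9, Cxcl1 and Cxcl2 were 3.96 to 9.21 times. Sums led by a few abundant genes do not bound the change of a rarer cell type. The part of blood cell content in these gaps was not tested.

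Among the other lists, the T and NK cell markers summed to 445 FPKM in S23, 1.47 times the next library (1.15 times under TMM scaling), and were led by Nkg7, Cd4, Cd3g and Cd8a. Nkg7 alone had 402 FPKM in S23, and the other 9 markers summed to 42.9 FPKM there, against 35.0 to 63.2 FPKM over all libraries. Only 3 of the 10, Nkg7, Gzma and Gzmb, were highest in S23, with Gzma moving to S13 under TMM scaling, and Cd3e and Klrd1 were lowest there. Osteoclast markers, led by Ctsk, Acp5, Atp6v0d2 and Dcstamp, summed to 805 FPKM in S23 and 410 to 716 FPKM elsewhere, with the highest sum in S10 under TMM scaling. The summed osteoblast markers, led by Bglap, Col1a1, Ibsp and Col1a2, were lowest in S23 at 738 FPKM, but of the 7 genes only Bglap was itself lowest there (4 of 7 under TMM scaling). Alpl, the bone alkaline phosphatase gene, was highest in S23 at 64.7 FPKM, also under TMM scaling. The erythroid markers, led by Ahsp, Alas2, Slc4a1 and Klf1, also had their lowest sum in S23, at 1475 FPKM, and 4 of 5 were lowest there, or 5 of 5 under TMM scaling. The endothelial markers Egfl7, Tie1, Kdr and Cdh5 summed to 31.4 FPKM in S23, inside their range of 25.7 to 35.1 FPKM. None of the markers on the lists shown here had S23 at 2 times the next library. No list of mast cell and basophil markers was taken. Prss34, a protease gene of these cells, had 110.5 FPKM in S23 against 6.83 FPKM in the next library.

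S20, where Ccl6, Ccl5 and Ccl3 were lowest, had the lowest sums of several leukocyte lists. The eosinophil markers Prg2, Epx and Il5ra summed to 108 FPKM in S20 and 1687 to 4246 FPKM elsewhere, and the neutrophil sum of 18150 FPKM in S20 was the lowest of the 6. Most of that neutrophil sum was S100a9 (8517 FPKM) and S100a8 (4299 FPKM). Both genes, Camp, Lcn2 and Elane were lowest in S20. Mmp8, Mmp9, Csf3r, Mpo and Cxcr2 were lowest in S10, with Mmp8 and Mpo moving to S20 under TMM scaling. Ngp and Ltf were lowest in S12. Of the monocyte and macrophage markers only Lyz2 was lowest in S20 as deposited, joined by Cd68 and Cd14 under TMM scaling. Of all genes with at least 0.5 FPKM, 16.0% were lowest in S20, and under TMM scaling 23.7%. Ccl6, Ccl5 and Ccl3 remained lowest in S20 under TMM scaling, and with FPKM brought to a common sum the lowest Ccl5 value moved to S10. Whether leukocyte content has a part in these low values was not tested.

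**Figure D4:**
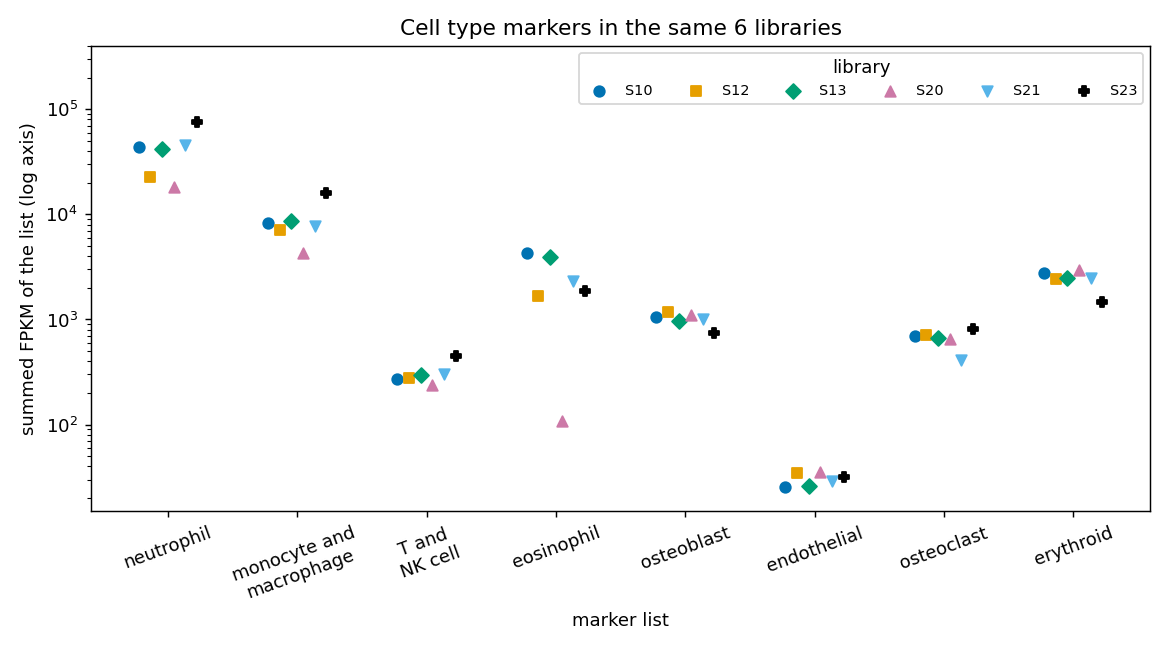
Summed FPKM of each cell type marker list on a log axis, with 1 symbol per library. S23 is highest for the neutrophil, monocyte and macrophage, T and NK cell and osteoclast lists, lowest for the osteoblast and erythroid lists, and S20 is lowest for the neutrophil and eosinophil lists, the latter at 108 FPKM.

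Genes with a profile like that of each chemokine were sought among annotated genes whose median reached 1 FPKM, as the 3 with the smallest root mean square difference of log2(FPKM + 1), centred on each gene's median, over the 6 libraries. The nearest genes to Ccl7 were Ccl9 (a difference of 0.12), Ccl2 (0.18) and Timp1 (0.32), and those to Cxcl1 were Ccl9 (0.17), Timp1 (0.28) and Ccl2 (0.28). Ccl2 lay nearest to Fetub (0.26), Ccl9 (0.26) and Timp1 (0.28), and Ccl9 to Ccl2 (0.26), Timp1 (0.37) and AABR07034992.1 (0.39). Ccl2 and Ccl9 were thus in each other's nearest 3 among 11625 genes. Ccl7 and Cxcl1, with medians under 1 FPKM, were not among the genes searched and could not be found as neighbours. Timp1, an inhibitor of matrix metalloproteinases, was among the nearest 3 of all 4 chemokines, with 57.3 FPKM in S23 and 18.2 to 24.2 in the other libraries. Without S23 none of these 4 chemokines kept any of its nearest 3 genes. Ccl6 lay nearest to Ltb (0.09), Sirpd (0.15) and Cyba (0.15). Ccl5 lay nearest to Msto1 (0.24), AABR07007675.1 (0.25) and Echs1 (0.26), genes that were also highest in S13. For Ccl3 these were Vti1b, Cinp and Tmem128, for Ccl4 AC109542.1, Pfdn6 and Anapc15, for Cxcl2 Cdkn2aipnl, Plscr1 and Fam49b, and for Cxcl16 Pgam1, Ptpn22 and AABR07009105.1. In these 4 cases the differences were 0.05 to 0.09, and such low values are easily reached by genes of narrow range. Without S23, Ccl3 kept Tmem128 and Ccl6 kept Ltb among their nearest 3, and the other 8 of the 10 chemokines kept none.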

How the data were processed

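RNA of rat subchondral bone was measured in 6 libraries. Per the labels' protocols, RNA came from an RNeasy kit and libraries from a SMARTER mRNA-Seq kit. The authors deposited 1 table with a column of raw counts (whole numbers) and a column of FPKM per library, per the file headers. Aligner and counter: not given in the sources used here. The submitters' processing notes name the mouse builds GRCm38 and mm10 although row IDs are rat Ensembl IDs. Coordinates on the build used for counting are therefore not given. Promoters, with their printed coordinates, come from the RefSeq table (GRCr8). Of 30610 rows, 10 without values were left out.

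No library has a group in the labels, so values are described per library without tests. The members and gene lists were chosen with earlier results of these data known. Text genes were all members, the 4 highest medians of each list and the 3 nearest genes of each member. Others were named after values were seen: Il6, Tnf, Ccl20, Cxcl3, Cxcl13, Cxcl9, Cxcl10, Cxcl11, Cxcr6, Ltf, Lcn2, Elane, Mmp8, Mmp9, Csf3r, Mpo, Cd68, Cd14, Klrd1, Cd3d, Cd3e, Gzma, Gzmb, Prf1, Alpl, the C1q genes and the genes of the closing observations. Sums without Nkg7 or Lyz2 were also taken after values were seen. One list gene is not reported here. The pseudocount was 1. Alternatives were TMM factors (edgeR 4.0.16), median-ratio factors (DESeq2 1.42.0), a common FPKM sum, totals without globin rows, a pseudocount of 0.1, and leaving out each library. Ranking and nearest-gene steps were tested on simulated data. Intervals are exact at 95% (Poisson for counts, binomial for shares). For a count of 0, 3 counts was taken as the limit, whereas the exact interval reaches 3.69 counts.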

Additional observations from a re-analysis of the deposited data

How the results depend on the processing

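The number of the 10 chemokines with a range of 1 or more on the log2(FPKM + 1) scale was 6, and 2 to 6 when each library was left out in turn, with the value of 2 reached without S23. It was 6 or 7 under the 4 other scalings, 9 with a pseudocount of 0.1, and 4 when the count took in only genes whose median reached 1 FPKM. The number highest in S23 was 8, and 6 to 9 under the other scalings; without S23 it has no value. The number with a median of at least 1 FPKM was 7, and 6 without S10, S21 or S23. Of 210 medians and ranges of single genes under these alternatives, 195 moved by less than the standard deviation of that gene's log2 values over the libraries and 15 moved by more. All 15 were ranges. That standard deviation took in S23, which widens it for genes far higher there, so the measure was lenient for their medians. The pseudocount cannot change a median or an order of FPKM values and was tried on the ranges only. Low counts limit Ccl7, Cxcl1 and Cxcl2, whose ranges with a pseudocount of 0.1 were 5.30, 3.91 and 2.92. No paired analysis was possible because the labels give no groups and no shared replicate numbers. The lack of group labels means that no value here speaks to temperature.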

Other observations

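In all, 54 annotated genes, 0.401% of those that reached 0.5 FPKM, had S23 at least 2 times the next library. Some of them reached 0.5 FPKM in S23 only. Of the 54, 5 were the chemokines Ccl2, Ccl7, Ccl9, Cxcl1 and Cxcl2. Others, chosen after their values were seen, were the stromelysin gene Mmp3 (24.9 FPKM in S23 against 0.983 in the next library), the matrix gene Postn (23.5 against 4.76), the hyaluronan genes Tnfaip6 (1.92 against 0.615) and Has2 (0.870 against 0.170), and the mast cell and basophil protease gene Prss34 (110.5 against 6.83 FPKM). These are values of 1 library, and their relation to the chemokines was not tested.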
